A study of Homo sapiens with 12 samples.

Results

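GNMT and 9 other genes of methyl group, folate and serine metabolism (SARDH, MAT2A, AHCY, MTHFD1, MTHFD2, SHMT1, SHMT2, PHGDH and PSAT1) were followed in LNCaP cells. They were chosen by name as enzymes of connected pathways, and are 10 of the 36137 genes in the count table. Of these 36137 genes, 18468 had enough counts to be tested, among them 9 of the 10; SARDH did not. LNCaP is an established, androgen-sensitive prostate cancer line from a lymph node metastasis. Messenger RNA was sequenced from 4 groups of 3 libraries each. The first received siRNA against PXN, the gene of the focal adhesion adaptor paxillin, and dihydrotestosterone (DHT, a potent androgen). The second received PXN siRNA and the ethanol vehicle, the third a non-specific siRNA and DHT, and the fourth the non-specific siRNA and vehicle. In every group siRNA was given for 48 h, serum was then withdrawn for 12 h, and DHT at 2.5 nM or vehicle was given for 24 h, so the vehicle libraries also came from serum-starved, transfected cells. The labels name neither the sequence nor the number of siRNAs used against PXN, and the control carries a single non-specific siRNA label. Nothing in the labels states that the 3 libraries of a group are separate cultures, so each p-value reflects the spread between libraries, which may be technical.

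One-carbon metabolism moves single-carbon units between folates and methionine. Serine is the main donor: SHMT1 in the cytosol and SHMT2 in mitochondria pass its carbon to folate, and MTHFD1 and MTHFD2 interconvert the folate forms that feed nucleotide synthesis and methionine. MAT2A makes S-adenosylmethionine (SAM), the methyl donor of the cell, from methionine, and AHCY clears the S-adenosylhomocysteine left after each methyl transfer. GNMT transfers a methyl group from SAM to glycine, giving sarcosine, and is regarded as a buffer of the SAM supply; SARDH oxidises sarcosine back to glycine. PHGDH and PSAT1 carry out the first and second steps of serine synthesis from a glycolytic intermediate. Sarcosine has been discussed as a metabolite of prostate cancer, and GNMT has been described as an androgen-responsive gene in prostate cells.

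The sequence just upstream of the start site is shown for GNMT, whose level changed with DHT, for PHGDH, which had the largest fall after PXN siRNA under vehicle, and for MTHFD1, the single gene with a match to a searched motif among the 9 with a window. Each line gives the 250 bases before the RefSeq start (GRCh38.p14), 5′ to 3′ on the plus strand, on which all 3 genes lie. GNMT is at chr6:42960504-42960753, PHGDH at chr1:119711684-119711933 and MTHFD1 at chr14:64388103-64388352. Capitals mark the match.
GNMT: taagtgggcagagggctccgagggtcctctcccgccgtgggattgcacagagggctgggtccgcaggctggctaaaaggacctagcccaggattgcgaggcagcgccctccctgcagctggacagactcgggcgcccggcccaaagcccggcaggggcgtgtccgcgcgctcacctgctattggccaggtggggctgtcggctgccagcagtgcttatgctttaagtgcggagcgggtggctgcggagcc
PHGDH: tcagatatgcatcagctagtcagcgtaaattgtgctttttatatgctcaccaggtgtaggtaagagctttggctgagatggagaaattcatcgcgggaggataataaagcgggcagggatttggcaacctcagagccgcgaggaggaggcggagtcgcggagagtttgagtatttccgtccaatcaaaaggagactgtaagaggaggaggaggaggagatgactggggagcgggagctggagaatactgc
MTHFD1: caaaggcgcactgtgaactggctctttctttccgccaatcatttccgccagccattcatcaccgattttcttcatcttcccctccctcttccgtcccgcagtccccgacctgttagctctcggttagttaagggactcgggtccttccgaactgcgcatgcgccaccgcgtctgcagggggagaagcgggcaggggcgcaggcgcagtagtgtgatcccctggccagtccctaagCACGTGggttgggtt
RefSeq start windows of 300 bases (250 before to 50 after the start) were at hand for 9 of the 10 genes, all but SHMT2, 12 windows in all. They were searched on both strands for the androgen response word AGAACA, and for the full androgen response palindrome, that is AGAACA, then 3 free bases, then TGTTCT, with at most 3 mismatches. The composite word TGATGNAA of ATF4, a stress-induced activator of serine synthesis genes, and the E-box CACGTG, a word of MYC and other basic helix-loop-helix factors, were searched as well. The E-box of MTHFD1, at bases -15 to -10 from the start, was the only match. Among all 35116 RefSeq windows of this length, 14.8% held AGAACA, 10.8% the palindrome with up to 3 mismatches (which can contain that word), 3.62% the ATF4 word and 7.26% the E-box. A match is a description of the letters and not of binding, and the absence of a match says only that these letters are not in these windows.

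The libraries held 34321000 to 38633456 counts assigned to genes, so that 1 CPM (a count scaled by the TMM-adjusted library size) stands for 33.65 to 38.2 counts. PXN itself was 19.96, 18.1 and 16.6 CPM with PXN siRNA and DHT and 15.2, 21.2 and 14.9 CPM with PXN siRNA and vehicle, against 113, 99.7 and 104 CPM with non-specific siRNA and DHT and 112, 106 and 108 CPM with non-specific siRNA and vehicle. The siRNA labels thus separated all 12 libraries by their PXN level (log2 fold change -2.66 ± 0.11 (SE) under vehicle and -2.54 ± 0.11 under DHT). Of 9 LNCaP and luminal prostate markers all were detected and tested. Their summed level was 3517 to 4042 CPM with PXN siRNA and DHT, 2956 to 3417 CPM with PXN siRNA and vehicle, 6978 to 7307 CPM with non-specific siRNA and DHT and 4648 to 5143 CPM with non-specific siRNA and vehicle. Of 10 markers of other cell types 6 stayed under 1 CPM in every group mean, PTPRC, CD68, PECAM1, KRT5, TP63 and LUM. The list summed to 61.7 to 71.5, 58.8 to 61.3, 42.6 to 52.3 and 42.8 to 51.6 CPM in the same order of groups, most of it COL1A1 and VWF. The share of counts on mitochondrially encoded genes was 8.13 to 8.95% with PXN siRNA and 4.69 to 7.55% with non-specific siRNA. The part of these levels in the results was not tested.

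Per kilobase of the main annotated transcript (APPRIS principal, GENCODE 29) in cells with non-specific siRNA and vehicle, the levels ran from AHCY at 173 ± 3.04 CPM per kb (SD, n = 3) through PSAT1, PHGDH, SHMT2, MAT2A, MTHFD1, SHMT1 and MTHFD2 to GNMT at 11.6 ± 0.407 CPM per kb and SARDH at 0.0083 ± 0.0081 CPM per kb. The first 4 of these enzymes were not separated from their neighbours by the spread of the 3 libraries: AHCY overlapped with PSAT1, PSAT1 with PHGDH, and PHGDH with SHMT2. All later neighbours were separated. With non-specific siRNA and DHT, GNMT averaged 22.1 ± 3.26 CPM per kb and passed MTHFD2 at 20.0 ± 0.874 CPM per kb, with overlapping ranges. The order depends on the length taken at both ends. Over the union of all annotated exons PSAT1, not AHCY, came first with non-specific siRNA and vehicle, and GNMT stood above SHMT1 at 9.69 ± 0.253 CPM per kb with no overlap. By that length GNMT was above MTHFD2 (18.3 ± 0.800 CPM per kb, overlapping) and MTHFD1 (15.1 ± 0.621 CPM per kb, no overlap) with non-specific siRNA and DHT. In every group and by both lengths SARDH came last.

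**Figure D1:**
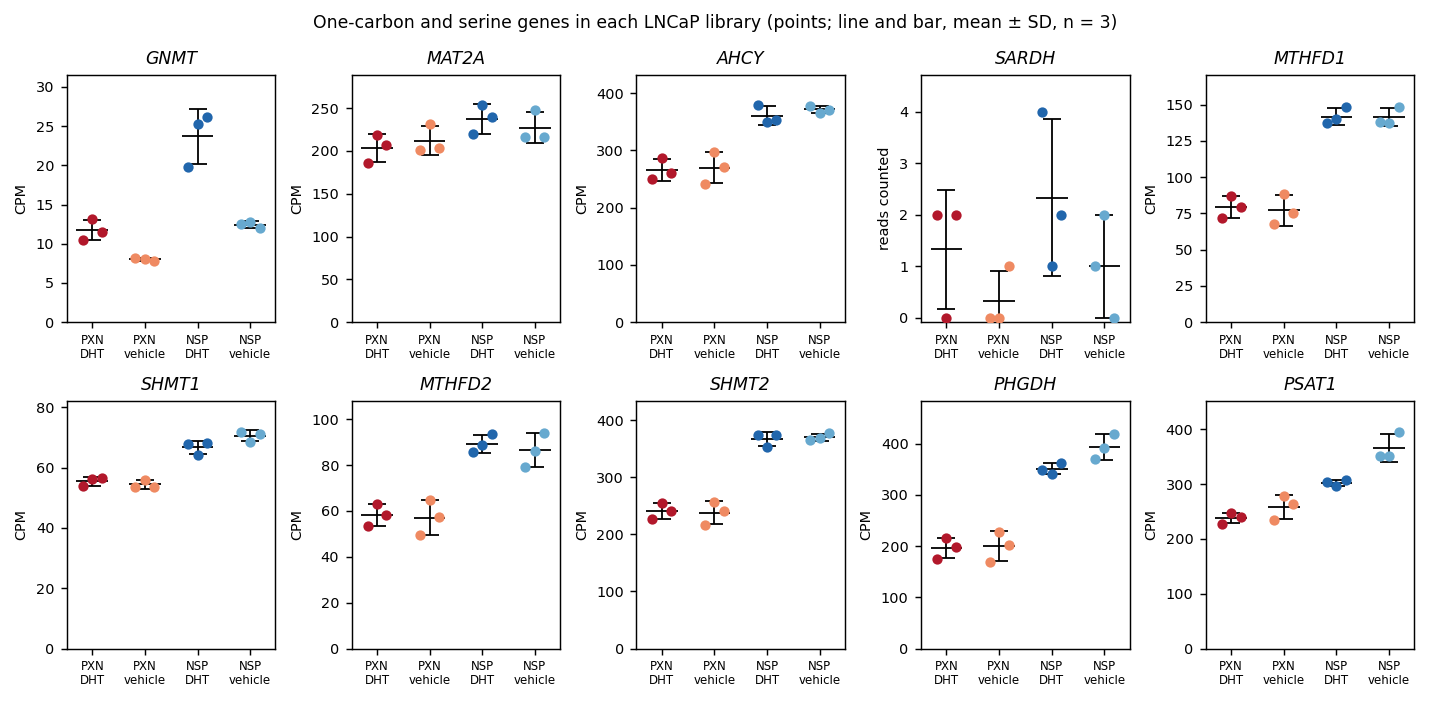
Level of each of the 10 genes in every library, in CPM (SARDH in counted reads), with points for libraries and a line and bar for the mean ± SD of 3 libraries; NSP is the non-specific siRNA. GNMT is highest in the 3 libraries with non-specific siRNA and DHT (19.7 to 26.2 CPM), and AHCY, MTHFD1, SHMT1, MTHFD2, SHMT2, PHGDH and PSAT1 each separate by siRNA in all 12 libraries.

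Of the 9 tested enzymes, GNMT is the one called higher with DHT after non-specific siRNA, and it was lower after PXN siRNA under both treatments. Its level was 10.5, 13.1 and 11.5 CPM with PXN siRNA and DHT and 8.23, 8.07 and 7.82 CPM with PXN siRNA and vehicle. With the non-specific siRNA it was 19.7, 25.2 and 26.2 CPM under DHT and 12.6, 12.8 and 11.97 CPM under vehicle. The 3 vehicle libraries with PXN siRNA were the lowest of the 12, the 3 DHT libraries with non-specific siRNA the highest, and the PXN siRNA libraries with DHT lay across the range of the libraries with non-specific siRNA and vehicle.

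Relative to the non-specific siRNA, PXN siRNA lowered GNMT by 50.6% under DHT (log2 fold change -1.02 ± 0.11 (SE), adjusted p = 3.18e-06) and by 35.4% under vehicle (-0.63 ± 0.11, adjusted p = 0.000322). Here and below, adjusted p is that of edgeR's quasi-likelihood test after Benjamini-Hochberg adjustment over all 18468 genes, a gene is called at an adjusted p under 0.05, and SE is derived from that test. DHT raised GNMT by 90.4% with the non-specific siRNA (log2 fold change 0.93 ± 0.11, adjusted p = 0.000177). With PXN siRNA the difference was 45.7% (log2 fold change 0.54 ± 0.11) and did not pass (adjusted p = 0.0883), although the 3 DHT libraries were all above the 3 vehicle libraries. The replicate numbers pair these libraries (the check is given with the processing), and with the replicate number as a block in the fit the same difference, 0.54, passed at an adjusted p of 0.00853. It also passed with DESeq2, without a low-count filter, and when replicate 1 of non-specific siRNA with DHT (0.54, adjusted p = 0.0170) or replicate 1 of PXN siRNA with DHT (0.61, adjusted p = 0.0413) was left out; over all alternatives the adjusted p lay between 0.00392 and 0.453. The DHT effect with PXN siRNA minus that with non-specific siRNA was -0.39 on the log2 scale (95% interval -0.72 to -0.053). Its p was 0.0262 before adjustment and 1.000 after adjustment over all genes, so a smaller DHT effect after PXN siRNA was not called.

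GNMT lies on chromosome 6 at 42960758 to 42963880 on the plus strand (GRCh38, GENCODE 29) and shares 11 exonic bases with PEX6 on the opposite strand. PEX6 had 774 to 1653 counts per library. The kit is a stranded one, but no source used here gives the strand setting of the counting, so reads in the shared bases may have been assigned either way.

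The level of GNMT was followed most closely by HERC3 among the 11079 genes with at least 5 CPM, with Pearson's r = 0.988 over the 12 libraries (log2 CPM). The next were AADAT (r = 0.984), CLGN (r = 0.984), STK39 (r = 0.983) and GALNT7 (r = 0.982). The libraries fall into 4 groups, and r describes group and library differences together. HERC3 encodes a HECT-family ubiquitin ligase and averaged 110.4 CPM with PXN siRNA and DHT, 61.5 CPM with PXN siRNA and vehicle, 305 CPM with non-specific siRNA and DHT and 108 CPM with non-specific siRNA and vehicle. AADAT, an aminotransferase of lysine and tryptophan breakdown, averaged 33.3, 20.0, 83.9 and 41.2 CPM in the same groups. In all 5 the group means were lower after PXN siRNA under DHT and under vehicle and higher with DHT after either siRNA, as for GNMT. They were picked for their likeness to GNMT over these same libraries, which favours such a pattern, so it is a description and no test is given. Each of the 8 other tested enzymes had a positive r with GNMT, between 0.343 for PSAT1 and 0.741 for MTHFD2, and the closest of them, MTHFD2, was in place 2109 of the ranked genes.

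**Figure D2:**
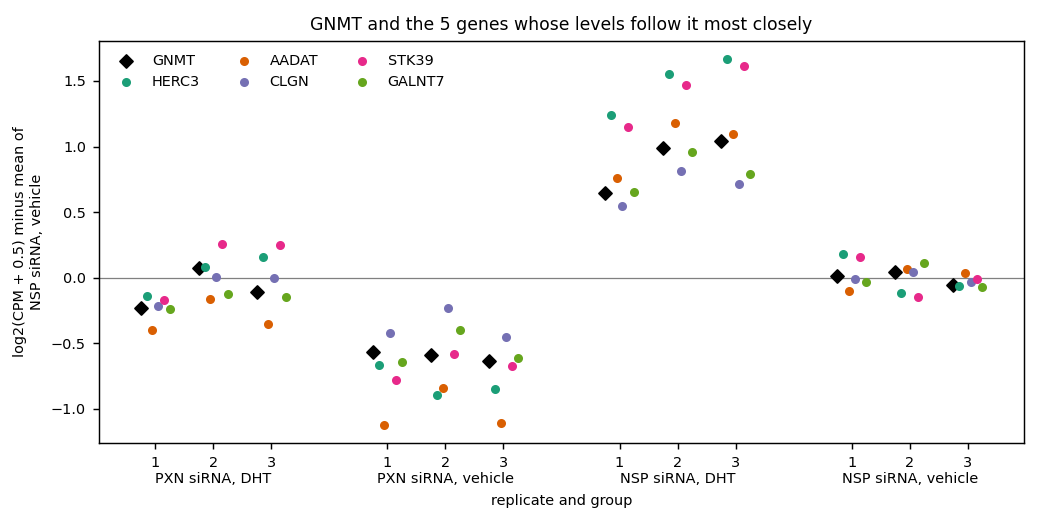
Level of GNMT (diamonds) and of the 5 genes with the highest correlation to it (circles) in each library, as log2(CPM + 0.5) minus the mean of the libraries with non-specific siRNA (NSP) and vehicle. All 6 genes are highest in the libraries with non-specific siRNA and DHT and lowest in those with PXN siRNA and vehicle.

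SARDH, the enzyme that would return sarcosine to glycine, was close to undetected. It had 2, 0 and 2 counts with PXN siRNA and DHT, 0, 0 and 1 with PXN siRNA and vehicle, 4, 1 and 2 with non-specific siRNA and DHT, and 1, 2 and 0 with non-specific siRNA and vehicle. In a library, 0 counts allow up to 3, or 0.0784 to 0.0892 CPM at these depths, counting error only. SARDH did not pass the low-count filter and was not tested, so no statement on a difference between the groups is made for it.

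PXN siRNA lowered 8 of the 9 tested enzymes under vehicle and 9 of 9 under DHT. None was called higher. Over all genes tested, 26.3% were called lower and 23.9% higher under vehicle, and 26.7% lower and 25% higher under DHT, so about every other gene tested was called. The median log2 fold change of the 9 enzymes was -0.60 under vehicle and -0.61 under DHT, beside 0.018 and 0.027 for all genes tested. These are changes relative to the TMM-adjusted library size, not to the library total. The TMM factors were 1.02 to 1.056 with PXN siRNA and 0.944 to 0.972 with non-specific siRNA. A higher factor gives a lower CPM for the same count and total, and the part of this scaling in the falls was not tested. In bulk RNA fewer cells of a kind and less RNA per cell cannot be told apart.

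Of the SAM cycle enzymes, AHCY had 249.98, 286 and 260.05 CPM with PXN siRNA and DHT, against 379, 349.6 and 353 CPM with non-specific siRNA and DHT. Under vehicle AHCY was 242, 296 and 272 CPM with PXN siRNA, against 378, 365 and 371 CPM with the non-specific siRNA. The siRNA groups did not overlap, and AHCY fell by 26.4% under DHT (log2 fold change -0.44 ± 0.076, adjusted p = 0.000224) and by 27.3% under vehicle (-0.46 ± 0.076, adjusted p = 0.00017).

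MAT2A, which makes SAM, moved least of the 9 after PXN siRNA. It had 186, 218 and 207 CPM with PXN siRNA and DHT, against 219, 254 and 239 CPM with non-specific siRNA and DHT. Under vehicle it had 201, 231 and 203 CPM with PXN siRNA, against 217, 248 and 217 CPM with the non-specific siRNA. Under vehicle the siRNA groups overlapped and the difference did not pass (log2 fold change -0.10 ± 0.083, 95% interval -0.28 to 0.078, adjusted p = 0.335). Under DHT the groups were just apart and the fall of 14.2% passed narrowly (-0.22 ± 0.083, adjusted p = 0.0383). That call was lost without replicate 1 of PXN siRNA with DHT (adjusted p = 0.103), and without replicate 2 (0.0874) or replicate 3 (0.0533) of non-specific siRNA with DHT. Upper-quartile scaling gave -0.12 (adjusted p = 0.259) and a stricter low-count filter -0.18 (0.0700); over all alternatives the adjusted p lay between 0.000814 and 0.259. MAT2A shares 558 exonic bases with GGCX on the opposite strand, 12.4% of its annotated exons.

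The cytosolic folate enzymes both fell. MTHFD1, a trifunctional enzyme that interconverts folates, had 71.5, 86.9 and 79.2 CPM with PXN siRNA and DHT, against 137, 139.8 and 148 CPM with non-specific siRNA and DHT. Under vehicle it had 67.4, 88.2 and 75.6 CPM with PXN siRNA, against 138, 137 and 148 CPM with the non-specific siRNA. The highest PXN siRNA library of MTHFD1 was below the lowest non-specific siRNA library by a wide gap, and the fall was 44.1% under DHT (log2 fold change -0.84 ± 0.091, adjusted p = 3.62e-06) and 45.4% under vehicle (-0.87 ± 0.091, adjusted p = 2.65e-06). SHMT1, the cytosolic serine hydroxymethyltransferase, had 53.9, 56.1 and 56.6 CPM with PXN siRNA and DHT, against 67.96, 64.3 and 68.1 CPM with non-specific siRNA and DHT. Its vehicle values were 53.6, 56.01 and 53.6 CPM with PXN siRNA, against 71.9, 68.5 and 71.2 CPM with the non-specific siRNA. Replicates of SHMT1 lay within a few CPM of each other, and its smaller falls of 16.9% under DHT (-0.27 ± 0.052, adjusted p = 0.00061) and 22.9% under vehicle (-0.37 ± 0.052, adjusted p = 3.75e-05) passed as well.

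In the mitochondrial arm, MTHFD2, the folate dehydrogenase known for its high level in tumours and embryos, had 53.5, 63.1 and 58.1 CPM with PXN siRNA and DHT, against 85.6, 88.96 and 93.3 CPM with non-specific siRNA and DHT. Under vehicle it had 49.5, 64.7 and 57.3 CPM with PXN siRNA, against 79.2, 86.2 and 94.2 CPM with the non-specific siRNA. No PXN siRNA library reached the level of a non-specific siRNA library, and MTHFD2 fell by 34.8% under DHT (log2 fold change -0.62 ± 0.093, adjusted p = 7.37e-05) and 33.98% under vehicle (-0.60 ± 0.093, adjusted p = 0.000101). SHMT2, which makes glycine and one-carbon folate from serine in mitochondria, had 227, 255 and 241 CPM with PXN siRNA and DHT, against 374, 353 and 375 CPM with non-specific siRNA and DHT. Its vehicle values were 217, 257 and 241 CPM with PXN siRNA, against 365, 369 and 377 CPM with the non-specific siRNA. SHMT2 fell by 34.3% under DHT (-0.61 ± 0.069, adjusted p = 5.46e-06) and 35.7% under vehicle (-0.64 ± 0.069, adjusted p = 3.74e-06), again with no overlap. MTHFD2 shares 1324 exonic bases with SLC4A5 on the opposite strand, which had only 3 to 14 counts per library.

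The serine synthesis enzymes differed in size of change. PHGDH, the first enzyme of the path, had 176, 216 and 198 CPM with PXN siRNA and DHT, against 349.6, 342 and 363 CPM with non-specific siRNA and DHT. Under vehicle it had 169, 228 and 203 CPM with PXN siRNA, against 371, 391 and 419 CPM with the non-specific siRNA. PHGDH had the largest fall of the 9 under vehicle. The fall was 44.03% under DHT (log2 fold change -0.84 ± 0.10, adjusted p = 8.09e-06) and 49.2% under vehicle (-0.98 ± 0.10, adjusted p = 2.20e-06). PSAT1, the next enzyme, had 228, 247 and 240.04 CPM with PXN siRNA and DHT, against 303, 297 and 308 CPM with non-specific siRNA and DHT. Its vehicle values were 234, 278 and 263 CPM with PXN siRNA, against 352, 351 and 395 CPM with the non-specific siRNA. PSAT1 fell by 21.2% under DHT (-0.34 ± 0.071, adjusted p = 0.000976) and by 29.4% under vehicle (-0.50 ± 0.071, adjusted p = 4.51e-05), and the siRNA groups did not overlap under either treatment. Annotated pseudogenes or other copies of AHCY, MTHFD1, MTHFD2, PSAT1 and SHMT1 held at most 0.542% of the counts of their gene in any library.

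**Figure D3:**
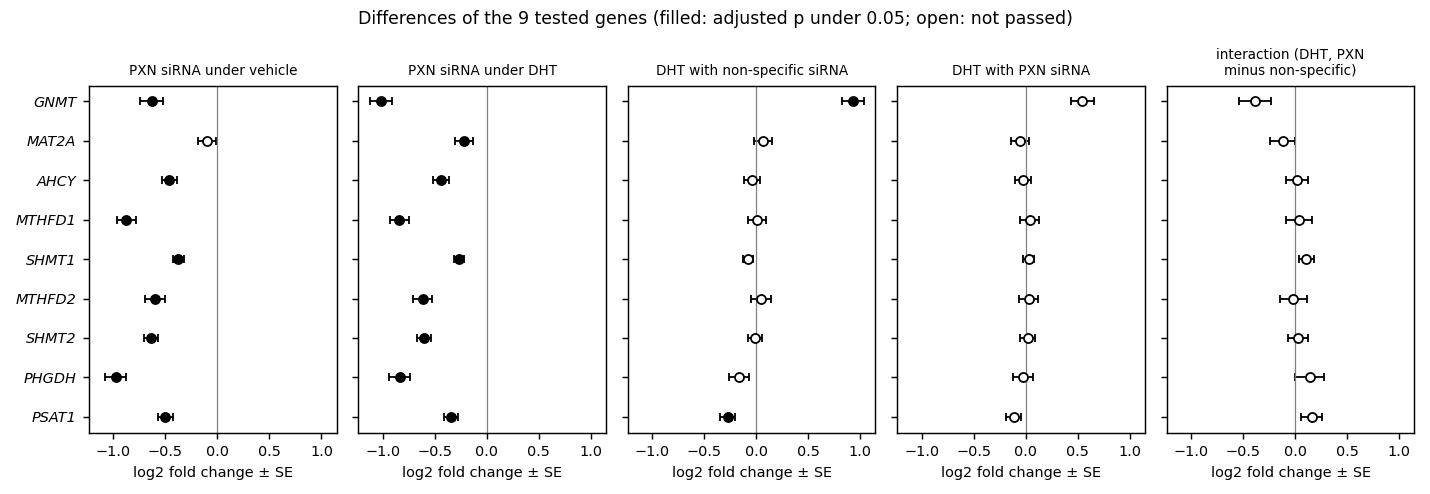
Log2 fold change ± SE of the 9 tested enzymes in each comparison (PXN siRNA over non-specific siRNA in the first 2 panels, DHT over vehicle in the next 2, and the difference of the DHT effects in the last), filled where the adjusted p is under 0.05. All 9 lie below 0 after PXN siRNA, while with DHT only GNMT lies far above 0.

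DHT changed 2 of the 9 enzymes with the non-specific siRNA: GNMT was called higher, where 2.72% of all genes were, and PSAT1 lower, where 2.16% were. The median over the 9 was -0.013 on the log2 scale and -0.0096 over all genes. For PSAT1, the 3 DHT libraries (297 to 308 CPM) all lay below the 3 vehicle libraries (351 to 395 CPM), a fall of 17.4% (log2 fold change -0.28 ± 0.071, adjusted p = 0.0374). This call depended on the settings. It was lost with DESeq2 size factors (adjusted p = 0.0531), in a fit of only the pair of groups (0.0590), and in 7 of the 12 fits that left out a library. With non-specific siRNA these were DHT replicates 1 (0.0596), 2 (0.167) and 3 (0.113) and vehicle replicates 1 (0.0711) and 3 (0.192); with PXN siRNA they were DHT replicate 3 (0.0645) and vehicle replicate 3 (0.0597). The log2 fold change stayed between -0.30 and -0.20 over all alternatives, and the adjusted p between 0.00422 and 0.192.

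PHGDH, the neighbour of PSAT1 in the pathway, also had its 3 DHT values (342 to 363 CPM) below its 3 vehicle values (371 to 419 CPM) with non-specific siRNA, but the difference did not pass (log2 fold change -0.16 ± 0.10, 95% interval -0.37 to 0.046, adjusted p = 0.450). SHMT1 was 64.3 to 68.1 CPM with DHT and 68.5 to 71.9 CPM with vehicle, likewise without overlap and without a call (-0.079 ± 0.052, 95% interval -0.19 to 0.032, adjusted p = 0.514). The other 5 enzymes had overlapping groups. The interval of the DHT effect was -0.16 to 0.13 for SHMT2, -0.21 to 0.12 for AHCY, -0.19 to 0.20 for MTHFD1, -0.15 to 0.24 for MTHFD2 and -0.11 to 0.24 for MAT2A, all on the log2 scale.

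After PXN siRNA, 0 of the 9 enzymes passed for DHT, where 0.184% of all genes were called higher and 0% lower. GNMT alone had an unadjusted p under 0.05 in edgeR's test. It was called by DESeq2 and by edgeR with the replicate block, while limma-voom called 0 of the 9. Over all genes edgeR called 34 higher and 0 lower, with 905 higher and 473 lower at an unadjusted p under 0.05; with the replicate block 346 genes passed, and for DHT after non-specific siRNA 2236 rather than 900. Between the siRNAs, a difference of the DHT effects was called by edgeR for 0 of the 9 enzymes and for 0% of all genes. At an unadjusted p under 0.05 in that test there were 778 of 18468 genes and, of the enzymes, only GNMT. DESeq2 called 37 genes, and limma-voom 0, none of them an enzyme of the 9. With 3 libraries per group, a lack of calls does not show that the DHT effects are equal. For PSAT1 the difference of the DHT effects was 0.16 (95% interval -0.057 to 0.37) and for PHGDH 0.14 (-0.16 to 0.44). The comparisons of PXN siRNA and of DHT share libraries, so their values for a gene are not independent of each other.

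Beyond the 10 enzymes, 6 lists of other one-carbon and serine genes held 59 genes, 54 of them tested. After PXN siRNA 31 of the 54 were called lower and 7 higher under DHT, and likewise 31 lower and 7 higher under vehicle, beside the shares of all genes given above. The median of the 54 was -0.32 under DHT and -0.35 under vehicle. With DHT 1 was called higher and 1 lower after non-specific siRNA, and 0 passed after PXN siRNA in edgeR's test. With the replicate block MTR and SLC19A1 also passed as higher with DHT after non-specific siRNA, and after PXN siRNA NNMT and SLC19A1 passed as higher and SLC44A1 as lower.

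In the list of methionine cycle and SAM-using genes, 7 of 11 were lower and 1 higher after PXN siRNA under either treatment. With the replicate block NNMT also passed as lower under DHT (-0.72, adjusted p = 0.0165) and MTR, the methionine synthase, as higher under vehicle (0.15, adjusted p = 0.0286). PEMT, which methylates phosphatidylethanolamine to phosphatidylcholine with SAM, averaged 11.9 ± 1.67 CPM with PXN siRNA and DHT and 28.1 ± 1.71 CPM with non-specific siRNA and DHT (SD, n = 3; log2 fold change -1.24 ± 0.13), and -1.37 ± 0.13 was its log2 fold change under vehicle. AHCYL1, a relative of AHCY, fell by 37.4% under DHT and 41.04% under vehicle, and GAMT, the methyltransferase of creatine synthesis, by 28.6% and 30.3%. NNMT, which methylates nicotinamide, was the 1 gene called higher with DHT after non-specific siRNA. It had 0.596, 2.46 and 2.82 CPM with DHT, against 0.117, 0.379 and 0.259 CPM with vehicle, a log2 fold change of 2.93 ± 0.56 (adjusted p = 0.00690) at a level of 21 to 95 counts per DHT library and 4 to 14 per vehicle library.

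Of the choline and sarcosine branch, 1 of 6 genes was lower after PXN siRNA under DHT and 2 of 6 under vehicle. These counts lie near the shares of all genes called lower, 26.7% under DHT and 26.3% under vehicle. CHDH, which starts the conversion of choline to betaine, averaged 43.05 ± 3.13 CPM with PXN siRNA and DHT, 44.1 ± 2.49 with PXN siRNA and vehicle, 69.1 ± 2.98 with non-specific siRNA and DHT and 70.2 ± 3.14 with non-specific siRNA and vehicle; its fall was 37.7% under DHT and 37.2% under vehicle. SLC44A1, a choline transporter, was the 1 gene of the 54 called lower with DHT after non-specific siRNA, at 141, 97.3 and 89.5 CPM with DHT against 195, 169 and 177 CPM with vehicle (log2 fold change -0.72 ± 0.15, adjusted p = 0.0129). DMGDH, which makes sarcosine from dimethylglycine, averaged at most 1.70 CPM in any group, and PIPOX, a peroxisomal enzyme that oxidises sarcosine, at most 0.991 CPM. Neither was called in any comparison, except that DMGDH passed as higher after PXN siRNA under DHT with the replicate block (0.53, adjusted p = 0.0300).

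Among cytosolic folate and nucleotide genes, 7 of 10 were lower and 2 higher after PXN siRNA under DHT, and 6 lower and 2 higher under vehicle. TYMS, which makes thymidylate, had the largest fall of the list, to 15.2 ± 1.63 CPM with PXN siRNA and DHT against 42.1 ± 2.08 CPM with non-specific siRNA and DHT (log2 fold change -1.47 ± 0.11), with -1.83 ± 0.12 under vehicle. GART, an enzyme of purine synthesis, fell by 29.6% under DHT and 28.05% under vehicle. Of the mitochondrial folate genes 5 of 8 were lower and 1 higher under DHT, and 6 lower and 1 higher under vehicle. They include GLDC, the glycine decarboxylase of the glycine cleavage system (-1.23 ± 0.20 under DHT and -1.31 ± 0.20 under vehicle, log2), and MTHFD1L, which releases formate from mitochondria (-0.77 ± 0.10 and -0.71 ± 0.10). MTHFD2L, a paralogue of MTHFD2, passed under vehicle (-0.35 ± 0.067), and its value under DHT was -0.16 ± 0.067 (adjusted p = 0.0608); with the replicate block it passed there (-0.16, adjusted p = 0.0421), which made 6 of 8 lower.

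Of the remaining serine synthesis genes and carriers, 10 of 13 were lower and 1 higher after PXN siRNA under DHT, and 9 lower and 1 higher under vehicle. SFXN1, the mitochondrial serine carrier, averaged 116 ± 1.77 CPM with PXN siRNA and DHT and 166 ± 3.43 CPM with non-specific siRNA and DHT (log2 fold change -0.52 ± 0.056), and its log2 fold change under vehicle was -0.48 ± 0.056. Its relative SFXN2 fell by 46.3% under DHT and 42.96% under vehicle, and SLC1A5, a plasma membrane carrier of neutral amino acids, by 47.01% and 41.6%.

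In the transsulfuration and glutathione list 2 of 6 were higher and 1 lower after PXN siRNA under either treatment, counts that lie near the shares over all genes (25% higher and 26.7% lower under DHT, 23.9% and 26.3% under vehicle). The median of the list was 0.33 under DHT and 0.23 under vehicle, beside 0.027 and 0.018 for all genes. GCLC and GCLM, the catalytic and modifier subunits of the first enzyme of glutathione synthesis, were the higher ones. GCLC averaged 51.03 ± 4.18 CPM with PXN siRNA and DHT and 32.6 ± 2.97 CPM with non-specific siRNA and DHT (0.65 ± 0.088, log2), with 0.58 ± 0.088 under vehicle; GCLM gave 0.62 ± 0.13 and 0.67 ± 0.13. GSS, the next enzyme, fell by 18.8% and 17.7%. With the replicate number as a block, 4 of the 6 were higher under either treatment, CBS and CSAD being the others. The block also raised the calls over all 18468 genes, to 5368 higher under DHT and 5206 under vehicle, from 4622 and 4423. Outside the rule for naming, and chosen after their values were seen, genes also called higher under DHT included MAT1A, ALDH1L1, AMT and SFXN3, and those under vehicle included MAT2B, ALDH1L1, AMT and SFXN3.

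**Figure D4:**
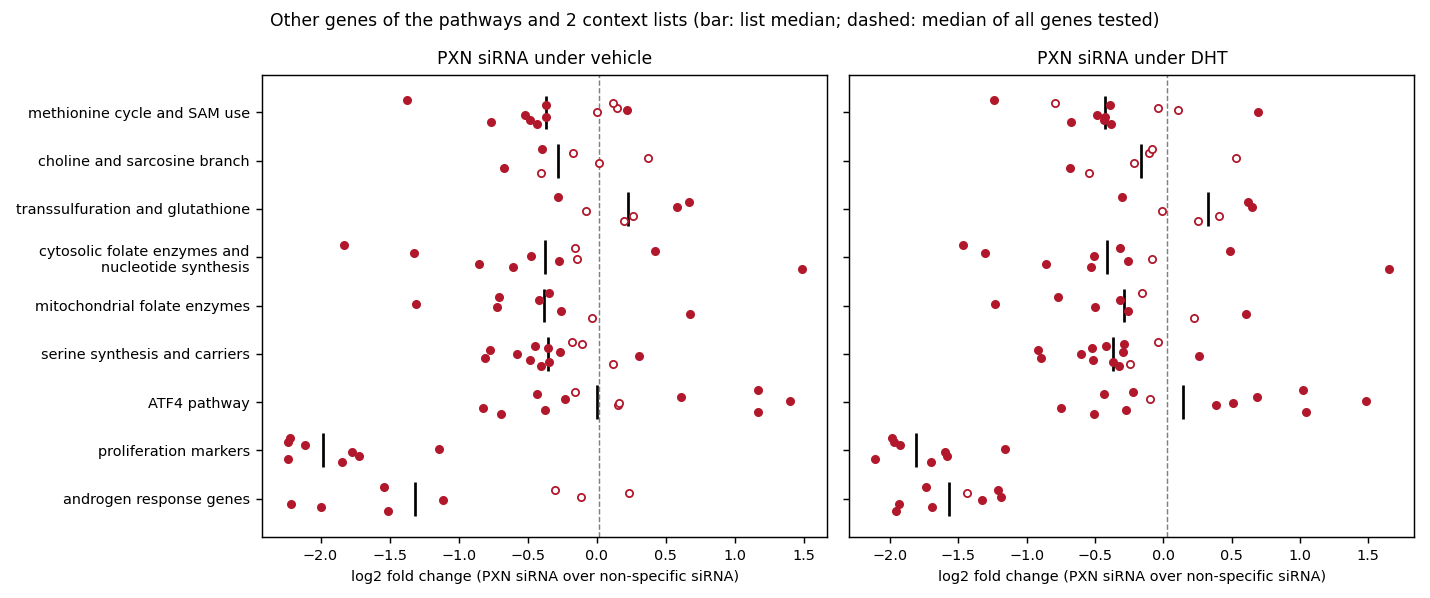
Log2 fold change of each tested gene (PXN siRNA over non-specific siRNA) in the 6 lists of other one-carbon and serine genes and in the ATF4, proliferation and androgen response lists, under vehicle and under DHT; filled circles are called, open circles are not, the bar is the list median and the dashed line the median of all genes. GCLC and GCLM lie right of the dashed line, and all 8 proliferation markers lie left of it.

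Levels of other programmes also differed between the groups, and their part in the results was not tested. After PXN siRNA 26.7% of all genes were called lower under DHT and 26.3% under vehicle. All 8 proliferation markers fell after PXN siRNA under both treatments, with medians of -1.81 under DHT and -1.98 under vehicle. Their summed level was 227 to 294 CPM with PXN siRNA and DHT and 201 to 305 CPM with PXN siRNA and vehicle, against 857 to 903 CPM with non-specific siRNA and DHT and 810.0 to 901 CPM with non-specific siRNA and vehicle. MCM2, a subunit of the replicative helicase, gave -1.16 ± 0.081 under DHT and -1.14 ± 0.081 under vehicle (log2), and CCNB1, the mitotic cyclin B1, -1.58 ± 0.12 and -1.72 ± 0.12. With DHT 0 of these 8 markers passed with either siRNA (edgeR, also 0 at an unadjusted p under 0.05 and 0 with the replicate block).

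ATF4 and its targets did not move one way. Of the 12 genes of this list 5 were lower and 6 higher after PXN siRNA under DHT, and 5 lower (6 with the replicate block, which added TRIB3 at -0.16, adjusted p = 0.0340) and 4 higher under vehicle. Over all genes calls also went both ways, 26.7% lower and 25% higher under DHT and 26.3% and 23.9% under vehicle. The median log2 fold change of the list was 0.14 under DHT and -0.00061 under vehicle. ATF4 itself fell by 17.4% under DHT and 23.01% under vehicle. ASNS, the asparagine synthetase and a textbook ATF4 target, gave -0.51 ± 0.083 and -0.70 ± 0.083 on the log2 scale. DDIT3, the stress factor CHOP, was higher with PXN siRNA (1.48 ± 0.13 and 1.40 ± 0.12), as was VLDLR, a lipoprotein receptor (1.02 ± 0.12 and 1.17 ± 0.12). DDIT3 and VLDLR thus moved opposite to ASNS.

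Of the androgen response genes, 8 of 8 were called higher with DHT after non-specific siRNA. After PXN siRNA it was 5 of 8 (8 of 8 with the replicate block). Over all genes the shares were 2.72% and 0.184%. The median DHT effect of the 8 was 2.33 with non-specific siRNA and 2.13 with PXN siRNA (log2). A difference of the DHT effects was called for 0 of the 8 (median -0.33). The lower count of calls alone thus does not show a smaller DHT effect. PXN siRNA gave medians of -1.57 under DHT and -1.31 under vehicle, where 26.7% and 26.3% of all genes were called lower. After PXN siRNA 7 of the 8 were lower under DHT (8 with the replicate block, which added STEAP4 at -1.34, adjusted p = 0.00294) and 5 under vehicle. KLK3, which encodes prostate-specific antigen, averaged 584 ± 77.3 CPM with PXN siRNA and DHT, 140.1 ± 53.1 with PXN siRNA and vehicle, 2235 ± 131 with non-specific siRNA and DHT and 649 ± 165 with non-specific siRNA and vehicle. The order of the 4 group means of KLK3 is PXN siRNA and vehicle, PXN siRNA and DHT, non-specific siRNA and vehicle, non-specific siRNA and DHT, which is also the order for GNMT. In both genes the libraries with PXN siRNA and DHT overlapped in level with those with non-specific siRNA and vehicle.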

How the data were processed

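The starting point was a table of raw counts for 12 libraries, 3 in each of 4 groups, with each library assigned by its own label. Extraction used the RNeasy Plus Mini kit and library preparation the TruSeq Stranded mRNA kit, per the labels' protocols. The deposited counts are whole numbers per gene symbol. Trimmomatic 0.32, STAR 2.4.2a, Subread 1.5.0p3, featureCounts and GRCh38 are named, per the submitters' processing notes. No source used here gives the annotation, the strand setting or the handling of multiply mapped reads, so counts of overlapping or duplicated genes are less certain.

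In R 4.3.3 with edgeR 4.0.16, filterByExpr left out 17669 genes, TMM set the library sizes, and a two-sided quasi-likelihood test was run on a fit of 4 group means to all 12 libraries (8 residual degrees of freedom). The fit was tested on simulated data. Calls needed an adjusted p (Benjamini-Hochberg, over the 18468 genes tested) under 0.05, and SE is the log2 fold change divided by the square root of F. Correlations used log2(CPM + 0.5). Alternatives were DESeq2 size factors, upper-quartile scaling, no filter, a filter at a mean of 1 CPM, DESeq2 1.42.0, limma-voom (limma 3.58.1), a fit of only the groups compared, a replicate block, and leaving out each library. The members, lists and tests were chosen with earlier results of these data known. In each list up to 3 called genes with the smallest p were named per comparison, beside all members and PXN. Of the listed genes DHFR2 was the only symbol without a row in the table.

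The replicate numbers of the labels recur in each group. Between libraries with the same number, deviations of log2 CPM from the group mean correlated at 0.187 to 0.304 across the siRNAs under vehicle and at 0.125 to 0.395 across them under DHT. Across DHT and vehicle they correlated at 0.284 to 0.503 for the non-specific siRNA and at 0.152 to 0.439 for PXN siRNA. These 12 values all exceeded 0.1, so the numbers were taken to pair the libraries in the 4 comparisons of a pair of groups. The main fit holds no replicate term, so its p-values and calls ignore this pairing. Of all 18 pairs with the same number, 17 exceeded 0.1; the exception was replicate 3 of PXN siRNA with DHT and of non-specific siRNA with vehicle (0.000479), groups that meet only in the difference of the DHT effects, for which the numbers were not taken to pair. The block is 1 term over all 4 groups. With it, 5368 of the 18468 genes tested were higher and 5501 lower after PXN siRNA under DHT. Under vehicle 5206 were higher and 5422 lower. Replicates always differed by more than sampling noise (chi-square per gene 6.03 to 26.6 over 12 pairs). GENCODE 29 gave gene positions, lengths and overlaps, RefSeq (GRCh38.p14) the start windows, and Python 3.11.15 drew the figures. Some genes that the rule for naming would have named are not reported here.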

Additional observations from a re-analysis of the deposited data

How the results depend on the processing

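The falls of GNMT, AHCY, MTHFD1, SHMT1, MTHFD2, SHMT2, PHGDH and PSAT1 after PXN siRNA, and the rise of GNMT with DHT after non-specific siRNA, kept their direction and call in every alternative run. Of the enzymes, 2 passed for DHT with non-specific siRNA in the main fit, 1 with DESeq2 size factors and 1 with only the pair of groups compared, and 1 to 2 when each library was left out. For DHT with PXN siRNA 0 passed, and 1 passed without a filter, with DESeq2's Wald test and with the replicate block, and 0 to 1 when each library was left out. That 1 was GNMT, at 0.55 without a filter (adjusted p = 0.00679), 0.55 with DESeq2 (0.00392), 0.54 with the replicate block (0.00853) and 0.46 to 0.61 when each library was left out. The replicate block changed no other call of the 9 enzymes. MTHFD1 with DHT after non-specific siRNA reversed to -0.0051 with upper-quartile scaling. Differences near 0 changed sign when a library was left out: with non-specific siRNA the DHT effect spanned -0.024 to 0.053 for MTHFD1, -0.0084 to 0.12 for MTHFD2 and -0.025 to 0.022 for SHMT2. With PXN siRNA it spanned -0.044 to 0.15 for MTHFD1, -0.061 to 0.12 for MTHFD2, -0.041 to 0.072 for SHMT2, -0.093 to 0.046 for AHCY, -0.10 to 0.0089 for MAT2A and -0.13 to 0.078 for PHGDH. The difference of the DHT effects spanned -0.055 to 0.084 for AHCY, -0.053 to 0.14 for MTHFD1, -0.11 to 0.074 for MTHFD2 and -0.033 to 0.081 for SHMT2. The cause of these changes was not tested.

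Counts over all genes moved more. For DHT with non-specific siRNA 900 genes were called, 2236 with the replicate block and 416 to 1361 when each library was left out. For DHT with PXN siRNA 34 were called, 188 without a filter, 143 with DESeq2, 18 with only the pair of groups, 346 with the replicate block and 10 to 80 when each library was left out. For the difference of the DHT effects 0 were called, 1 with DESeq2 size factors, 35 without a filter, 37 with DESeq2, 58 with the replicate block and 0 to 45 when each library was left out. Upper-quartile scaling set the median of all genes after PXN siRNA under DHT at 0.13 (0.027 in the main fit), and MAT2A at -0.12. Depth limits SARDH, at 4 counts or fewer in each library.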

Other observations

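The subunits of the glycine cleavage system, which releases a one-carbon unit from glycine in mitochondria, did not move together after PXN siRNA; they are given here after their values were seen. AMT, the aminomethyltransferase subunit, averaged 4.91 ± 0.420 CPM with PXN siRNA and DHT and 3.22 ± 0.594 CPM with non-specific siRNA and DHT, and was called higher (log2 fold change 0.61 ± 0.20 (SE), adjusted p = 0.0221, edgeR). GCSH, the lipoyl carrier, averaged 4.90 ± 1.55 and 6.93 ± 0.718 CPM in the same groups and was called lower (-0.50 ± 0.19, adjusted p = 0.0357), as were GLDC and DLD, the dehydrogenase subunit (-0.26 ± 0.066, adjusted p = 0.00438). ALDH1L1, which oxidises formyl-folate in the cytosol, averaged 1.20 ± 0.254 CPM with PXN siRNA and DHT and 0.382 ± 0.0670 CPM with non-specific siRNA and DHT and was called higher (1.65 ± 0.34, adjusted p = 0.000926), at a low level.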
